A study of Mus musculus with 17 samples.

Results

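Tumors of 3 anti CTLA-4 treated mice were compared with tumors of 3 untreated mice, all collected on d14, which gives 6 of the 17 bulk RNA-seq libraries of the series, 1 library per mouse. The tumors grew from AB12, a murine mesothelioma cell line, after its cells had been injected into the peritoneum of BALB/c mice 14 days earlier. Treated mice received 200 µg of clone 9D9, an antibody against mouse CTLA-4, per injection into the peritoneum, and the comparison is with untreated mice rather than with mice given a control antibody. Mice whose tumors were collected on d14 had been injected on d6 and d10, in place of the general course of 4 injections in the labels. Each library holds whole tumor tissue, that is AB12 cells with host stroma, vessels and leukocytes, and all tumors derive from 1 cell line.

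CTLA-4 is an inhibitory receptor of T cells that competes with CD28 for the ligands CD80 and CD86, and an antibody against it leaves more of these ligands to CD28. In tumors such antibodies are known for increasing T cell activation and, where the antibody binds Fc receptors, for acting on regulatory T cells, which carry much CTLA-4. The myeloid cells and fibroblasts of a tumor respond to what T cells release, so genes of leukocytes, their receptors and the stroma were followed together. Ctla4 itself could not be followed, since it had between 0 and 2 counts in each of the 17 libraries.

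The 6 libraries held between 72413343 and 96759833 counts. Mesothelial genes were looked at for the mesothelioma label, in CPM (counts scaled to library size, TMM-normalized over the 6 libraries). Mesothelin (Msln) was present in all 6 tumors at 425, 638 and 513 CPM in untreated and 397, 381 and 436 CPM in treated tumors. Keratin 19 (Krt19) was at 754, 642 and 624 CPM in untreated and 409.8, 358 and 417 CPM in treated tumors. Other mesothelial genes were far lower, such as Wt1 and Bnc1, given below. Calb2 had a mean of 3.01 CPM in untreated and 3.95 CPM in treated d14 tumors, normalized over the 17 libraries. The presence of the abundant genes does not settle the label. Counts on processed pseudogenes made up 0.309%, 0.305% and 0.235% of the untreated libraries and 0.139%, 0.152% and 0.145% of the treated libraries, and ribosomal protein genes made up 2.61%, 2.58% and 2.52% against 1.91%, 1.997% and 1.97%. Both shares were lower in every treated library than in every untreated library. Mitochondrial genes took 1.17% to 1.39% of the counts in all 6. Which library was sequenced on which of the 2 instruments is not given in the sources used here, so a difference in library preparation cannot be told apart from treatment, and the part of these shares in the results below was not tested.

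Treated replicates 1 and 3 stood apart by pancreas RNA. The exocrine pancreas makes digestive enzymes in acinar cells, and the sum over 37 acinar genes was 4.05, 2.71 and 4.80 CPM (counts scaled to library size, TMM-normalized over the 17 libraries) in the untreated tumors and 6440, 8.86 and 2135 CPM in the treated tumors. The sum over the 6 genes of the Reg family, secreted lectins of acinar cells, was 0.108, 0.129 and 0.161 CPM in the untreated and 1198, 0.596 and 391 CPM in the treated tumors. Treated replicates 1 and 3 thus lay far above the other 4 libraries, and treated replicate 2 lay above each untreated tumor in both sums at a small share of the level of replicates 1 and 3. Acinar and Reg genes together took 0.801% of the counts of treated replicate 1, 0.266% of replicate 3 and 0.00102% of replicate 2, and the acinar sum reached at most 9.38 CPM in the 11 libraries of the other groups.

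The acinar genes stood in nearly 1 ratio between the 2 libraries. Single genes are given here in CPM that were TMM-normalized over the 6 libraries, unlike the sums above. Chymotrypsinogen B1 (Ctrb1, chr8:111686519-111691010 in GRCm38) was at 1801 CPM in treated replicate 1, 0.806 CPM in replicate 2 and 622 CPM in replicate 3, and had 0, 0 and 3 counts in the untreated tumors, where it reached at most 0.0312 CPM. Carboxypeptidase B1 (Cpb1) was at 481, 0.150 and 149 CPM in the treated replicates 1 to 3, carboxyl ester lipase (Cel) at 439, 0.276 and 139.8 CPM, and Reg1 at 338, 0.127 and 106 CPM. The ratio of replicate 1 to replicate 3 was 2.90 for Ctrb1, 3.23 for Cpb1, 3.14 for Cel and 3.19 for Reg1. Over the 28 acinar genes with at least 10 CPM in a treated library it lay between 2.90 and 3.35, with a median of 3.13. In all, 41 genes were in both libraries at least 10 times as high as in each of the other 4 after 0.1 CPM had been added to the latter, and 37 of these are in the acinar or Reg lists. The remaining 4 were Serpini2, Pigr, Cckar and Gm10334, at 16.3, 7.20, 5.70 and 5.52 CPM in treated replicate 1, named after their values were seen. Islet hormone genes did not follow the acinar genes, with no count of Ins1, at most 1 count of Ins2 and at most 2 counts of Gcg in any of the 17 libraries. Iapp had at most 1 count in the 6 libraries and at most 66 in the 17. Chromogranin A (Chga), of endocrine cells and neurons, was at 1.34, 1.36 and 1.09 CPM in untreated and 1.53, 3.01 and 2.85 CPM in treated tumors, with treated replicate 1 the lowest of the treated tumors. Albumin (Alb), made by hepatocytes, had 0, 0 and 0 counts in untreated and 367, 0 and 79 counts in treated tumors, so among the 6 libraries it too was present in treated replicates 1 and 3 alone, at 3.85 and 0.916 CPM.

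**Figure D1:**
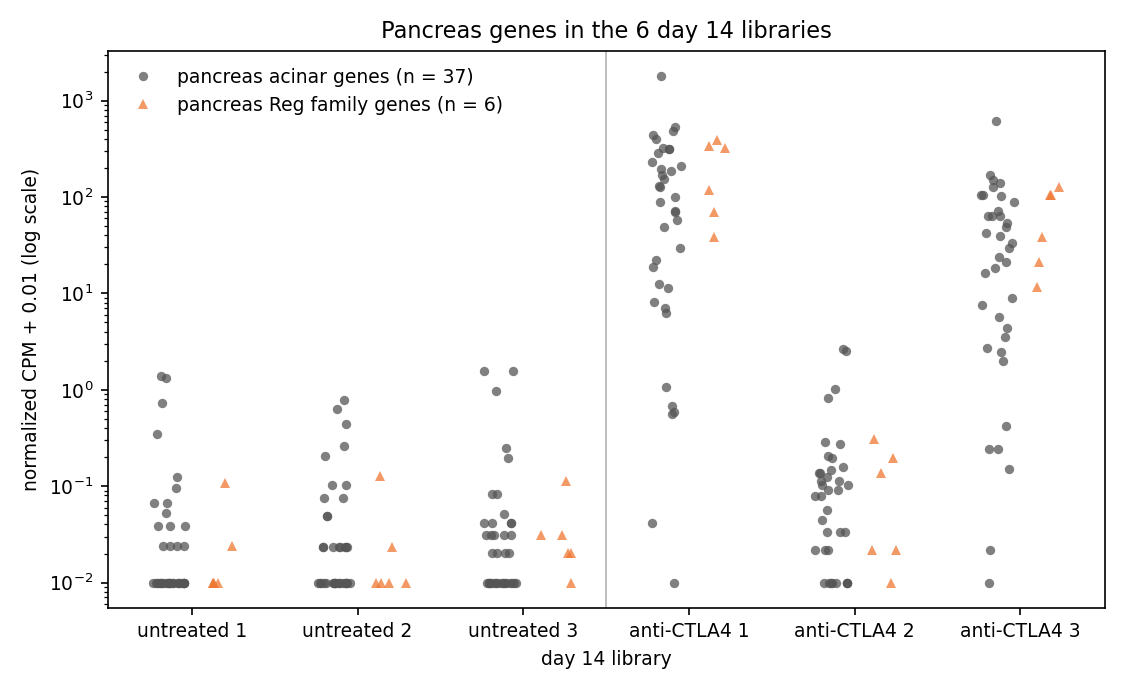
Normalized CPM + 0.01 (log axis) of pancreas genes in the 6 d14 libraries, with 1 point per gene and library, circles for the 37 acinar genes and triangles for the 6 genes of the Reg family. For Ctrb1 treated replicates 1 and 3 lie above all other libraries, at 1801 and 622 CPM. Treated replicate 2 lies below both for this gene, at 0.806 CPM, and above the highest untreated value of 0.0312 CPM. Treated replicate 2 does not lie above the untreated tumors in every gene, as in Dmbt1, at 0.184 CPM against an untreated maximum of 0.340 CPM.

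For all genes together, the test was edgeR's quasi-likelihood test on the counts of the 6 libraries, and a gene was called when its Benjamini-Hochberg adjusted p was under 0.05 and its change over 2-fold. Of 14451 protein-coding genes tested, 1507 (10.4%) were called, 1353 (9.36%) higher and 154 (1.07%) lower in treated tumors, while the median log2 fold change was -0.002. By adjusted p alone, 2853 (19.7%) were higher and 2270 (15.7%) lower, so most of the lower genes had moved less than 2-fold. Of the 37 acinar and 6 Reg genes, 13 and 3 passed the filter on low counts. Most of these were hardly present in untreated tumors and passed through the treated libraries. All of them were called higher, which this filter made likely, so their calls are no result about these genes. They are described by library in place of a fold change. By DESeq2 33 acinar and 6 Reg genes were called. The number of pancreas acinar genes called higher was 1 without untreated replicate 1, 20 without untreated replicate 2, 30 without untreated replicate 3 and 35 without treated replicate 2. Of the pancreas Reg family genes, the number called higher was 0 without untreated replicate 1, 5 without untreated replicate 2 or untreated replicate 3 and 6 without treated replicate 2. In the fits that left out 1 library the number called was 921 without treated replicate 1, 957 without treated replicate 2 and 987 without untreated replicate 2, and 1084 to 2036 in the other 3. Untreated replicate 2 was the lowest of the 6 libraries in 1081 (79.9%) of the genes called higher. Without the genes of the pancreas lists 1500 genes were called.

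Treated replicate 2, which carried little pancreas RNA, was also compared alone with the 3 untreated tumors. No protein-coding gene was called in this comparison by edgeR's quasi-likelihood test, where 4265 of 14800 had an unadjusted p under 0.05 and the lone treated library is assumed to vary like the untreated ones. By value, 1348 of the 1349 genes called higher that could be fitted were higher in treated replicate 2 as well, 1272 of them by over 2-fold, and all 154 genes called lower were lower, 139 of them by over 2-fold. Replicate 2 was among the libraries that called these genes, so these counts describe them and test nothing. Below, each gene is given by its CPM in replicates 1, 2 and 3 of each group, TMM-normalized over the 6 libraries, followed by its log2 fold change (treated minus untreated) ± standard error and adjusted p from edgeR over all genes tested, with n = 3 per group. Genes and lists are described as having risen or fallen where they were called. Each count of list members called is to be read against 9.36% higher and 1.07% lower over all protein-coding genes tested. Where groups are said not to overlap, the same held for many genes, since all 3 treated tumors lay above all 3 untreated tumors in 28.2% of the 14451 protein-coding genes and below them in 26.7%.

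**Figure D2:**
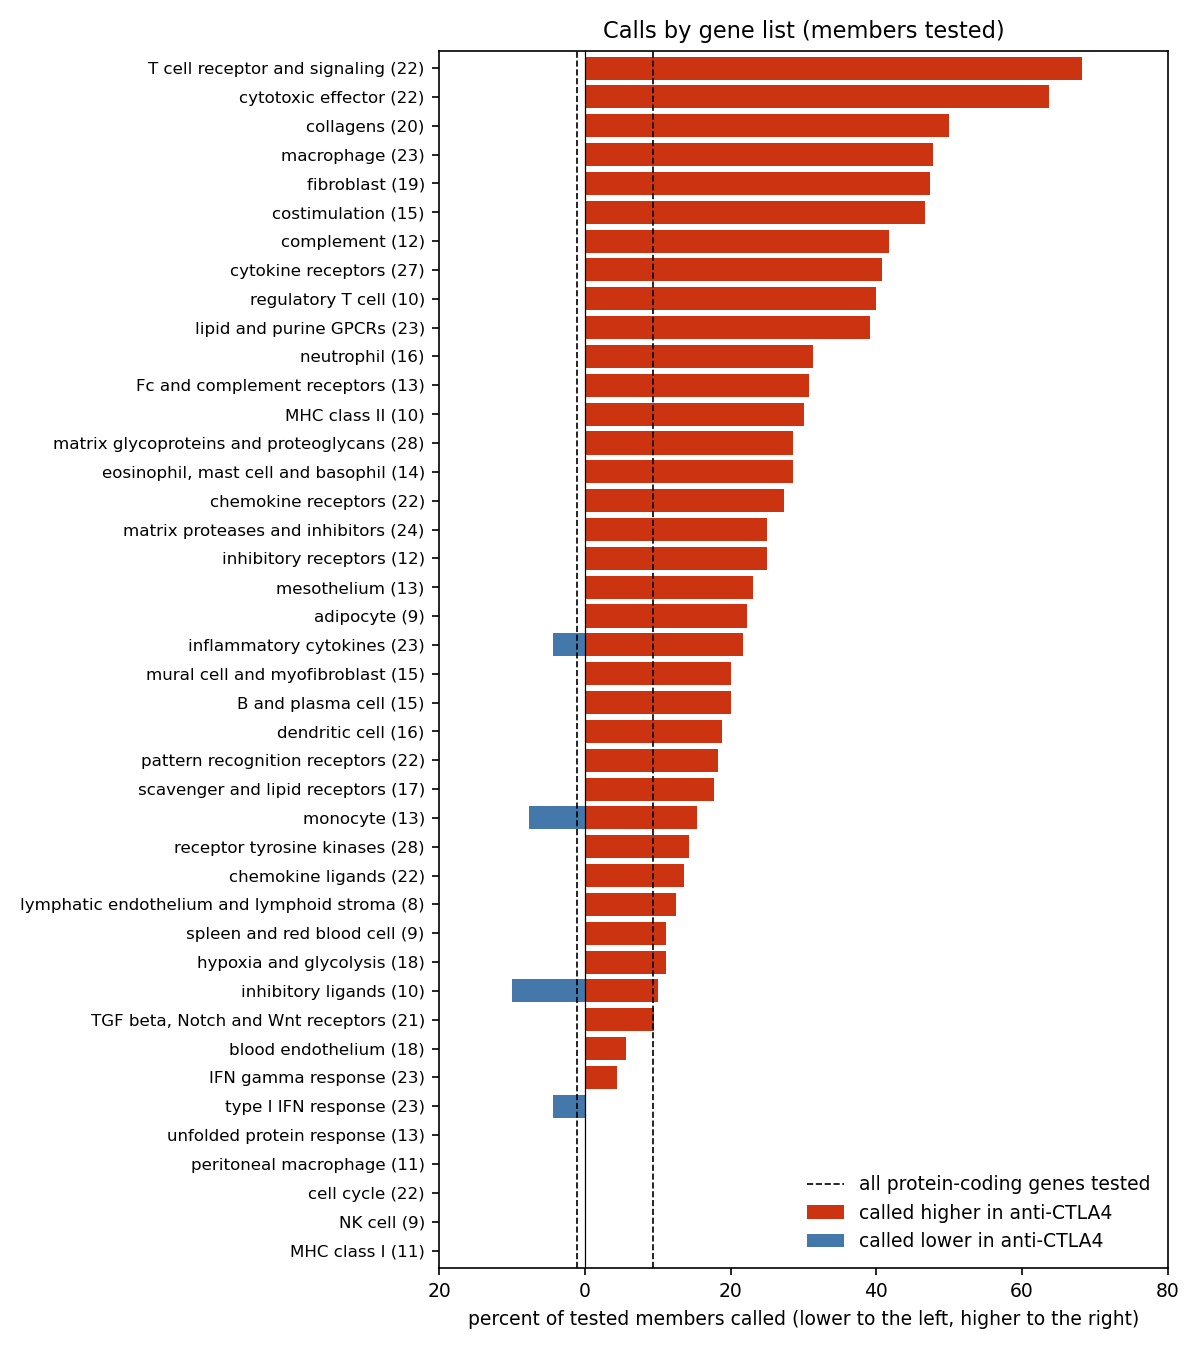
Percent of the tested members of each gene list (lists with at least 8 tested members) called higher or lower in treated d14 tumors, with dashed lines at the share over all protein-coding genes, 9.36% higher and 1.07% lower. T cell, cytotoxic, macrophage, collagen and fibroblast lists lie above the dashed line for higher genes, and the cell cycle and type I IFN lists have no member called higher.

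T cell genes rose in treated tumors, and since each library is a whole tumor, more cells of a type and more RNA per cell cannot be told apart here or below. Of 22 genes of the T cell receptor complex and its signaling, 15 rose, against 9.36% of all protein-coding genes tested, none fell and the median log2 fold change was 1.17. Cd6, a co-receptor of T cells (chr19:10789341-10830058), was at 8.16, 4.92 and 8.41 CPM in untreated and 18.5, 23.1 and 17.1 CPM in treated tumors (log2 fold change 1.45 ± 0.22, adjusted p = 0.00578). Its 3 treated values lay above its 3 untreated values, with untreated replicate 2 lowest. Cd8b1, a chain of the CD8 co-receptor, was at 18.9, 10.97 and 22.8 CPM in untreated and 40.5, 38.5 and 33.5 CPM in treated tumors (log2 fold change 1.09 ± 0.24, adjusted p = 0.0134, called in 5 of 6 leave-one-out fits). Cd4, the co-receptor of helper and regulatory T cells, was at 3.35, 2.12 and 4.72 CPM in untreated and 9.63, 10.8 and 8.53 CPM in treated tumors (log2 fold change 1.5 ± 0.27, adjusted p = 0.00837). Neither co-receptor overlapped between the groups. Cd3e, of the receptor complex, was at 31.5, 21.7 and 37.1 CPM in untreated and 60.02, 59.2 and 59.4 CPM in treated tumors. Cd3d was at 10.9, 6.16 and 12.6 CPM in untreated and 19.4, 20.3 and 18.6 CPM in treated tumors. Their log2 fold changes of 0.98 ± 0.17 and 0.98 ± 0.23 (adjusted p = 0.00774 and 0.0176) stayed below 2-fold, although the groups did not overlap. Lck (log2 fold change 1.1), a kinase that carries the receptor's signal, and Thy1 (1.27), which fibroblasts also express, rose too. The T cell receptor and signaling genes called higher numbered 9 without untreated replicate 2.

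Costimulatory genes gave 7 of 15 higher and none lower. Icos, an inducible costimulator of T cells, was at 8.49, 5.29 and 9.55 CPM in untreated and 22.4, 22.7 and 19.8 CPM in treated tumors (log2 fold change 1.47 ± 0.2, adjusted p = 0.00508). Tnfrsf18 (GITR), carried by regulatory and activated T cells, was at 3.68, 1.87 and 3.06 CPM in untreated and 7.14, 8.11 and 6.21 CPM in treated tumors (log2 fold change 1.32 ± 0.25, adjusted p = 0.00969). Treated and untreated tumors did not overlap in either. Cd40lg, by which helper T cells activate antigen-presenting cells, had 8, 1 and 17 counts in untreated and 54, 50 and 38 counts in treated tumors (log2 fold change 2.32 ± 0.56, adjusted p = 0.0186, called in 3 of 6 leave-one-out fits). Its receptor Cd40 was at 11.8, 6.06 and 11.8 CPM in untreated and 21.4, 23.8 and 17.99 CPM in treated tumors (log2 fold change 1.09 ± 0.25, adjusted p = 0.0159, called in 3 of 6 leave-one-out fits). In these 2 genes untreated replicate 2 was lowest and the groups did not overlap. Tnfrsf4 (OX40, log2 fold change 1.06) and its ligand Tnfsf4 (1.0) rose as well. The ligands that CTLA-4 and CD28 share did not pass the test. Cd80 was at 28.1, 31.9 and 29.3 CPM in untreated and 29.9, 27.6 and 31.98 CPM in treated tumors (log2 fold change 0.0 ± 0.08, adjusted p = 0.979). Cd86 was at 26.9, 19.2 and 33.6 CPM in untreated and 34.2, 43.3 and 31.8 CPM in treated tumors (log2 fold change 0.45 ± 0.2, adjusted p = 0.116), and in both genes the groups overlapped. Leave-one-out counts of costimulation genes called higher were 3 without treated replicate 2 and 4 without untreated replicate 2 or treated replicate 1.

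Cytotoxic effector genes rose in 14 of 22 cases, with a median log2 fold change of 1.20 and none called lower. Perforin (Prf1), which opens pores in target cells, was at 114, 71.3 and 102 CPM in untreated and 227, 238 and 199.5 CPM in treated tumors (log2 fold change 1.21 ± 0.16, adjusted p = 0.00499). Granzyme B (Gzmb), the protease that enters through them, was at 107, 69.4 and 80.01 CPM in untreated and 294, 229 and 223 CPM in treated tumors (log2 fold change 1.54 ± 0.17, adjusted p = 0.00436). The lowest treated tumor was above the highest untreated tumor in both genes. Other granzymes rose with them. Gzmg was at 251, 194 and 153 CPM in untreated and 604, 596 and 496 CPM in treated tumors (log2 fold change 1.51 ± 0.17, adjusted p = 0.00437). Gzmc was at 75.2, 56.7 and 44.1 CPM in untreated and 187, 175 and 159 CPM in treated tumors (log2 fold change 1.57 ± 0.18, adjusted p = 0.00436). These granzymes lie in 1 cluster of similar genes, so reads may be split among them. Ifng, the cytokine of activated T and NK cells, was at 8.80, 4.48 and 6.56 CPM in untreated and 15.1, 15.2 and 11.03 CPM in treated tumors (log2 fold change 1.06 ± 0.25, adjusted p = 0.0167, called in 3 of 6 leave-one-out fits). Of the chemokines in this list, Ccl4 rose (log2 fold change 1.09 ± 0.24, adjusted p = 0.014, called in 5 of 6 leave-one-out fits) and Ccl5 was at 91.1, 27.5 and 119.9 CPM in untreated and 174, 236 and 158 CPM in treated tumors with an adjusted p of 0.0667. Cathepsin W (Ctsw, log2 fold change 1.23) and Gzme (1.34) were called in all 6 leave-one-out fits too.

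NK cell receptors did not pass the threshold. None of 9 was called, 2 were higher by adjusted p alone, and the median log2 fold change was 0.66, with all 9 values above 0. Klrd1 was at 12.4, 10.3 and 16.1 CPM in untreated and 21.7, 23.8 and 18.8 CPM in treated tumors (log2 fold change 0.73 ± 0.17, adjusted p = 0.0167). Klrk1 was at 23.2, 16.4 and 29.1 CPM in untreated and 34.1, 34.6 and 32.1 CPM in treated tumors (log2 fold change 0.55 ± 0.18, adjusted p = 0.0507). Among the NK cell genes the number called higher was 1 without untreated replicate 3. Regulatory T cell genes gave 4 of 10 higher. Foxp3, the transcription factor that defines these cells, was at 0.919, 0.923 and 1.92 CPM in untreated and 2.496, 3.47 and 3.23 CPM in treated tumors (log2 fold change 1.28 ± 0.32, adjusted p = 0.0217, called in 2 of 6 leave-one-out fits). Il2ra, their high-affinity IL-2 receptor chain, which effector T cells also express, was at 17.5, 12.8 and 14.9 CPM in untreated and 42.2, 45.8 and 40.9 CPM in treated tumors (log2 fold change 1.51 ± 0.12, adjusted p = 0.00292). Il2ra kept the groups well apart, and Foxp3 was higher in each treated tumor at a low level. Ikzf4 (log2 fold change 1.25) and Ebi3 (1.17) were the other two called. The number of regulatory T cell genes called higher was 2 without untreated replicate 1, untreated replicate 2 or treated replicate 2.

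Among inhibitory receptors of T cells, 3 of 12 rose and 8 were higher by adjusted p at any fold change. Klrg1, of differentiated T and NK cells, was at 3.85, 2.71 and 2.84 CPM in untreated and 8.19, 8.41 and 7.06 CPM in treated tumors (log2 fold change 1.33 ± 0.18, adjusted p = 0.00495). Vsir (VISTA), which myeloid cells express, was at 61.4, 40.8 and 83.1 CPM in untreated and 168, 157 and 129 CPM in treated tumors (log2 fold change 1.3 ± 0.24, adjusted p = 0.0085). Entpd1 (CD39), an ectoenzyme that degrades extracellular ATP, rose as well (log2 fold change 1.05 ± 0.21, adjusted p = 0.0111, called in 4 of 6 leave-one-out fits). Of the inhibitory receptors, the number called higher was 5 without untreated replicate 3. The receptors blocked in checkpoint therapy were higher but stayed under 2-fold. Pdcd1 (PD-1) was at 21.4, 14.5 and 29.4 CPM in untreated and 36.4, 41.05 and 37.8 CPM in treated tumors (log2 fold change 0.82 ± 0.22, adjusted p = 0.0261). Lag3 was at 17.3, 8.55 and 23.4 CPM in untreated and 31.7, 36.9 and 29.2 CPM in treated tumors (log2 fold change 0.99 ± 0.31, adjusted p = 0.0431). Havcr2 (TIM-3) was at 58.4, 48.5 and 69.3 CPM in untreated and 87.96, 91.6 and 78.5 CPM in treated tumors (log2 fold change 0.55 ± 0.13, adjusted p = 0.0187). The treated tumors were above the untreated tumors in all 3. Of their 10 ligands and related enzymes, Pdcd1lg2 (PD-L2) rose and Ido1 fell, and the share that rose is near the 9.36% of all protein-coding genes. Pdcd1lg2 was at 25.98, 11.8 and 24.4 CPM in untreated and 63.6, 77.1 and 50.3 CPM in treated tumors (log2 fold change 1.62 ± 0.29, adjusted p = 0.00798). Cd274 (PD-L1) was higher by adjusted p alone, at 288, 214 and 300 CPM in untreated and 511, 504 and 420.3 CPM in treated tumors (log2 fold change 0.84 ± 0.14, adjusted p = 0.00681). Ido1, which breaks down tryptophan, was at 117, 83.8 and 121 CPM in untreated and 52.9, 46.4 and 59.5 CPM in treated tumors (log2 fold change -1.02 ± 0.15, adjusted p = 0.00594, called in 2 of 6 leave-one-out fits). The inhibitory ligands called lower numbered 0 without untreated replicate 1, untreated replicate 3, treated replicate 1 or treated replicate 2.

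B cell and plasma cell genes gave 3 of 15 higher, against 9.36% of all protein-coding genes tested, a difference of few genes. The 3 belong to antibody secretion. Jchain, which joins IgA and IgM into polymers (chr5:88519809-88527891), was at 53.4, 19.9 and 47.7 CPM in untreated and 283, 134 and 114 CPM in treated tumors (log2 fold change 2.14 ± 0.44, adjusted p = 0.0122). Derl3, of the endoplasmic reticulum, was at 0.778, 0.145 and 0.655 CPM in untreated and 4.30, 2.41 and 2.34 CPM in treated tumors (log2 fold change 2.52 ± 0.53, adjusted p = 0.0129). Pou2af1, a co-activator of immunoglobulin genes, was at 4.26, 1.29 and 8.41 CPM in untreated and 23.03, 13.3 and 12.2 CPM in treated tumors (log2 fold change 1.79 ± 0.57, adjusted p = 0.0456, called in 2 of 6 leave-one-out fits). B cell surface genes varied widely among the untreated tumors. Ms4a1 (CD20) was at 2.33, 0.461 and 10.7 CPM in untreated and 9.996, 7.16 and 5.82 CPM in treated tumors. The complement receptor Cr2 was at 0.509, 0.224 and 4.73 CPM in untreated and 2.35, 2.34 and 1.46 CPM in treated tumors. Untreated replicate 3 was the highest of the untreated tumors in both, within or above the treated values. Leave-one-out counts of B and plasma cell genes called higher were 12 without untreated replicate 3.

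Interferon genes did not follow the T cell genes. Of 23 genes induced by IFN gamma, Nos2 alone rose, at 587, 304 and 519 CPM in untreated and 1034, 1183 and 915 CPM in treated tumors (log2 fold change 1.15 ± 0.22, adjusted p = 0.0104, called in 5 of 6 leave-one-out fits), 3 of the 23 were higher and 6 lower by adjusted p at any fold change, and the median log2 fold change was -0.09. Among the IFN gamma response genes the number called higher was 0 without untreated replicate 2 and 2 without untreated replicate 1 or untreated replicate 3. Cxcl9 was at 468, 311 and 441 CPM in untreated and 406, 488 and 429.9 CPM in treated tumors (log2 fold change 0.12 ± 0.15, adjusted p = 0.577). Cxcl10 was at 178, 126 and 147 CPM in untreated and 133, 144 and 136 CPM in treated tumors (log2 fold change -0.13 ± 0.12, adjusted p = 0.451). The groups overlapped in both genes, and the sign changed without untreated replicate 2 for Cxcl9 and without untreated replicate 1 for Cxcl10. The values of the type I response lay lower. All 23 genes of the type I IFN response had negative fold changes (median -0.63), 19 of them with an adjusted p under 0.05, but only Ifit3b passed 2-fold. Ifit3b, which sits in the Ifit cluster next to the near-identical Ifit3, was at 11.2, 8.12 and 7.18 CPM in untreated and 4.30, 3.40 and 4.40 CPM in treated tumors (log2 fold change -1.13 ± 0.2, adjusted p = 0.00794, called in 4 of 6 leave-one-out fits). Its treated values lay below its untreated values. Ifi44 was at 217, 199 and 188 CPM in untreated and 112, 113 and 123 CPM in treated tumors (log2 fold change -0.79 ± 0.08, adjusted p = 0.00365). Ifih1 (MDA5), a sensor of double-stranded RNA, was at 164, 145 and 143 CPM in untreated and 90.3, 87.9 and 97.97 CPM in treated tumors (log2 fold change -0.71 ± 0.08, adjusted p = 0.00436). Isg15, a ubiquitin-like modifier, was at 74.9, 48.99 and 43.5 CPM in untreated and 36.5, 30.1 and 37.6 CPM in treated tumors (log2 fold change -0.68 ± 0.2, adjusted p = 0.033). In all 3 the treated tumors lay below the untreated tumors. The number of type I IFN response genes called lower was 0 without untreated replicate 1 or treated replicate 2, 2 without treated replicate 3 and 5 without untreated replicate 3. The sums over the list were 2913, 2410 and 2428 CPM in the untreated and 1779, 1643 and 1840 CPM in the treated tumors.

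The interferon-stimulated response element, bound by the factor that type I IFN activates, was looked for as GAAA, any 2 bases and GAAA on either strand, overlapping matches included, in windows of 250 bases before to 50 bases after the gene start (RefSeq, GRCm38.p6). Among the 17 tested genes of the list with a window in the table, 9 (52.9%) held it, against 1079 (3.99%) of 27025 genes. The windows of 4 genes that were lower in treated tumors are shown because they show where the element lies, in capitals, written 5′ to 3′ on the gene's own strand. The matches begin at positions -188 in Ifit3b, -104 in Ifit1, -78 in Isg15 and -75 in Oas3 relative to the start, counting the match nearest the 5′ end. A match is a description of these letters only.
Ifit3b (chr19:34607707-34608006, plus strand): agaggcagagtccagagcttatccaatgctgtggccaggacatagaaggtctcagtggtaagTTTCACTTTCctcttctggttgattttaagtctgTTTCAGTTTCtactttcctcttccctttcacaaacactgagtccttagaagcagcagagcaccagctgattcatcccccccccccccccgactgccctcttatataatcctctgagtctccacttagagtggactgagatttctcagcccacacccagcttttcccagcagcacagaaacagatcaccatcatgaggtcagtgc
Ifit1 (chr19:34640639-34640938, plus strand): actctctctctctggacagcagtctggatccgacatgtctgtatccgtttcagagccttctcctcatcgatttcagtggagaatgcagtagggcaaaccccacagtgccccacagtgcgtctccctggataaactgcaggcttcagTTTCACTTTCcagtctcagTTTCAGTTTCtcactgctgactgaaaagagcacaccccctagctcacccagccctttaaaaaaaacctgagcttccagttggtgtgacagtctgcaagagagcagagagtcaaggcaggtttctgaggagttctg
Isg15 (chr4:156200769-156201068, minus strand): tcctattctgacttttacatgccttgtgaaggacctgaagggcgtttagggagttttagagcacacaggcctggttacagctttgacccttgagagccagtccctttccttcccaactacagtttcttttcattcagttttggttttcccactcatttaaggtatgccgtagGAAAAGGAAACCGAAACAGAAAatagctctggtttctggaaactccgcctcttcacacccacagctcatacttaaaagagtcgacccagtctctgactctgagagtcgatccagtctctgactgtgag
Oas3 (chr5:120777610-120777909, minus strand): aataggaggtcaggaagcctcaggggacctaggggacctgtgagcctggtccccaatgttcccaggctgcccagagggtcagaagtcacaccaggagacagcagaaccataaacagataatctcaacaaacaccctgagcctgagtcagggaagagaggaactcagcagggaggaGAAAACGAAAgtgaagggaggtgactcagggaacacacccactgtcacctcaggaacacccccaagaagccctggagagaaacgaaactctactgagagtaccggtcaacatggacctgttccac
Ifit1 was at 70.6, 58.4 and 49.4 CPM in untreated and 34.8, 28.1 and 36.9 CPM in treated tumors (log2 fold change -0.84 ± 0.15, adjusted p = 0.00794). Oas3, which makes the oligoadenylates that activate RNase L, was at 213, 151 and 223 CPM in untreated and 118, 114 and 145 CPM in treated tumors (log2 fold change -0.64 ± 0.16, adjusted p = 0.0202). Neither gene's groups overlapped. Xaf1 and Irf7, which were also lower (log2 fold changes -0.54 ± 0.08 and -0.36 ± 0.12, adjusted p = 0.00511 and 0.0488), held no such match in their windows.

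Genes of MHC class II rose in part. Of 10 genes 3 rose, namely Ctss, H2-Ab1 and H2-Oa, and all 10 values were above 0. Cathepsin S (Ctss), which cuts the invariant chain, was at 756, 414 and 972 CPM in untreated and 2043, 2092 and 1537 CPM in treated tumors (log2 fold change 1.4 ± 0.28, adjusted p = 0.0111). H2-Ab1, a class II chain, was at 442, 262 and 618 CPM in untreated and 1017, 1051 and 858 CPM in treated tumors (log2 fold change 1.15 ± 0.27, adjusted p = 0.0173, called in 2 of 6 leave-one-out fits). Treated tumors were above untreated tumors in both. Of the MHC class II genes, the number called higher was 1 without untreated replicate 1, untreated replicate 2, treated replicate 1 or treated replicate 2 and 6 without untreated replicate 3. MHC class I gave none of 11, with 1 gene higher and 2 lower by adjusted p alone. H2-D1 was at 2502, 2117 and 2522 CPM in untreated and 3127, 2853 and 2854 CPM in treated tumors (log2 fold change 0.31 ± 0.09, adjusted p = 0.0387). B2m was at 4733, 4300 and 3940 CPM in untreated and 3670, 3425 and 3506 CPM in treated tumors (log2 fold change -0.29 ± 0.09, adjusted p = 0.0403).

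Myeloid genes rose next to the T cell genes. Of 23 macrophage genes 11 rose, none fell and the median log2 fold change was 1.02. The macrophage genes called higher numbered 7 without untreated replicate 2. Csf1r, the receptor for the growth factor of macrophages, was at 167, 100.3 and 218 CPM in untreated and 469, 527 and 372 CPM in treated tumors (log2 fold change 1.5 ± 0.26, adjusted p = 0.00778). The complement component C1qc was at 139, 82.6 and 151 CPM in untreated and 337, 321 and 267 CPM in treated tumors (log2 fold change 1.31 ± 0.21, adjusted p = 0.00664), and C1qa and C1qb rose by 1.13 and 1.2 on the log2 scale. Treated tumors were above untreated tumors in each. Arginase 1 (Arg1), which uses up arginine, was at 840.4, 564 and 585 CPM in untreated and 2028, 1954 and 1366 CPM in treated tumors (log2 fold change 1.43 ± 0.2, adjusted p = 0.00508). Apolipoprotein E (Apoe), a lipid carrier abundant in tumor macrophages, was at 479, 303 and 768 CPM in untreated and 1670, 1722 and 1224 CPM in treated tumors (log2 fold change 1.57 ± 0.31, adjusted p = 0.0104). Nos2, above, uses the same substrate as Arg1, and both rose. Secreted phosphoprotein 1 (Spp1), which many tumor cells express as well as macrophages, was the member with a lower value by adjusted p alone, at 3381, 4442 and 2425 CPM in untreated and 2238, 1902 and 2401 CPM in treated tumors (log2 fold change -0.65 ± 0.2, adjusted p = 0.0435). Trem2 had at most 1 count in any library and, like Ctla4, could not be followed. The cause of these missing counts was not tested.

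Resident peritoneal macrophages have markers of their own, and none of 11 was called, with a median log2 fold change of 0.41. Leave-one-out counts of peritoneal macrophage genes called higher were 1 without untreated replicate 1 or treated replicate 3 and 2 without untreated replicate 3. Their transcription factor Gata6 was at 10.9, 6.30 and 9.03 CPM in untreated and 21.2, 17.4 and 13.3 CPM in treated tumors (log2 fold change 0.99 ± 0.23, adjusted p = 0.017). Timd4 was at 19.9, 17.2 and 30.6 CPM in untreated and 47.4, 33.4 and 33.6 CPM in treated tumors (log2 fold change 0.76 ± 0.23, adjusted p = 0.038). The groups did not overlap in either gene, whereas Marco and Serpinb2 overlapped. Of 13 monocyte genes Clec4e and Nr4a1 rose and S100a4 fell, where 9.36% of all protein-coding genes tested rose and 1.07% fell. Clec4e (Mincle), a receptor for damaged cells and mycobacteria, was at 45.8, 29.9 and 49.9 CPM in untreated and 132, 116 and 104 CPM in treated tumors (log2 fold change 1.49 ± 0.19, adjusted p = 0.00485). S100a4, a calcium-binding protein that tumor cells and fibroblasts also express, was at 9.69, 9.21 and 8.49 CPM in untreated and 3.73, 3.26 and 3.28 CPM in treated tumors (log2 fold change -1.41 ± 0.13, adjusted p = 0.00347). Ly6c2 was at 16.1, 12.3 and 18.6 CPM in untreated and 12.3, 12.3 and 13.1 CPM in treated tumors (log2 fold change -0.32 ± 0.15, adjusted p = 0.135). Among the monocyte genes the number called higher was 1 without untreated replicate 2, 4 without treated replicate 2, 5 without treated replicate 3 and 7 without untreated replicate 1.

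Neutrophil genes gave 5 of 16 higher. Csf3r, the receptor for G-CSF, was at 21.2, 21.2 and 36.3 CPM in untreated and 68.98, 78.8 and 56.7 CPM in treated tumors (log2 fold change 1.38 ± 0.22, adjusted p = 0.0067). Clec4d was at 41.2, 31.3 and 45.3 CPM in untreated and 119, 114 and 99.6 CPM in treated tumors (log2 fold change 1.5 ± 0.14, adjusted p = 0.00362). The proteases Mmp8 (log2 fold change 1.43) and Mmp9 (1.66) and the secreted Retnlg (1.38) rose too. Genes of immature neutrophil granules were uneven among the untreated tumors. Lactoferrin (Ltf) was at 0.933, 1.74 and 10.4 CPM in untreated and 24.5, 20.9 and 16.7 CPM in treated tumors. Ngp was at 1.25, 2.93 and 20.5 CPM in untreated and 46.9, 36.6 and 31.2 CPM in treated tumors. Untreated replicate 3 was well above the other two untreated tumors in both, and their adjusted p were 0.0556 and 0.0801. The number of neutrophil genes called higher was 10 without untreated replicate 3. The S100a8 groups overlapped, at 11.5, 19.2 and 32.1 CPM in untreated and 41.96, 28.6 and 29.5 CPM in treated tumors.

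Dendritic cell genes gave 3 of 16 higher, against 9.36% of all protein-coding genes tested, a difference of few genes. Cd209a, a lectin of monocyte-derived dendritic cells, was at 0.835, 0.659 and 0.582 CPM in untreated and 3.15, 2.12 and 1.52 CPM in treated tumors (log2 fold change 1.71 ± 0.31, adjusted p = 0.00846). The chemokine Ccl22 was at 7.20, 4.11 and 4.10 CPM in untreated and 12.9, 18.2 and 13.5 CPM in treated tumors (log2 fold change 1.54 ± 0.25, adjusted p = 0.00673). Ccr7, by which mature dendritic cells reach lymph nodes, was at 2.55, 1.84 and 4.02 CPM in untreated and 5.21, 6.74 and 5.71 CPM in treated tumors (log2 fold change 1.06 ± 0.28, adjusted p = 0.0245, called in 2 of 6 leave-one-out fits). Treated tumors were above untreated tumors in all 3. The genes of cross-presenting dendritic cells Xcr1 and Clec9a overlapped between the groups, as Xcr1 at 6.85, 8.58 and 11.4 CPM in untreated and 8.81, 9.12 and 7.05 CPM in treated tumors. Eosinophil genes had few counts but separated the groups. Eosinophil peroxidase (Epx) had 1, 2 and 1 counts in untreated and 46, 29 and 32 counts in treated tumors. Its untreated tumors were thus at 2 counts or fewer. The major basic protein Prg2 had 16, 10 and 26 counts in untreated and 183, 94 and 83 counts in treated tumors (log2 fold change 2.64 ± 0.39, adjusted p = 0.00578). Il5ra, the receptor chain for the eosinophil growth factor, and the ribonuclease Ear2 rose as well, so 4 of 14 eosinophil, mast cell and basophil genes were called. The mast cell proteases Cma1, Mcpt4 and Cpa3 overlapped between the groups.

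**Figure D3:**
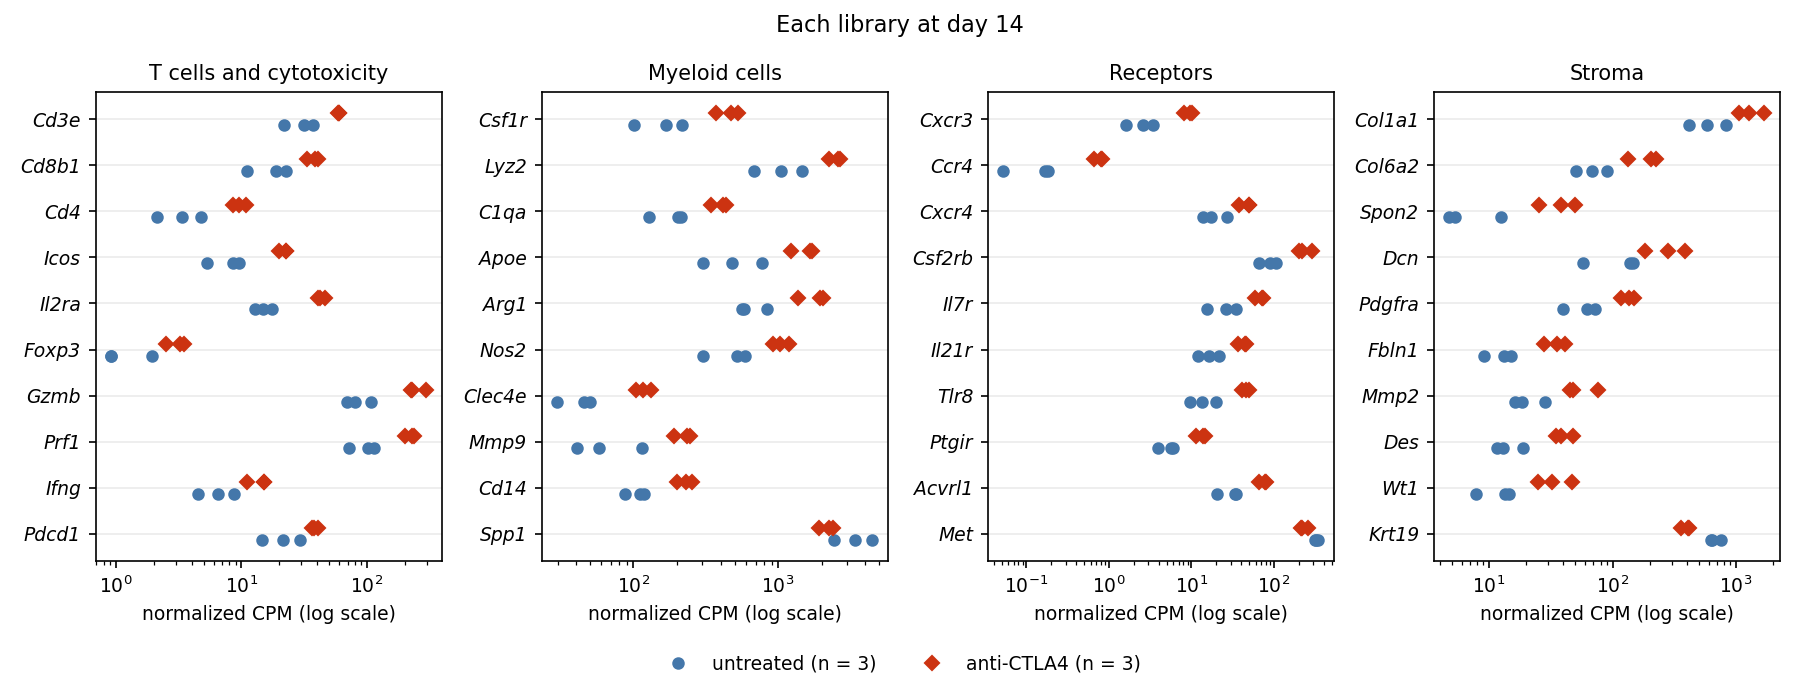
Normalized CPM (log axis) of 40 genes in 4 panels, with 1 point per d14 library, circles for untreated and diamonds for treated tumors. In 37 of the 40 genes the 3 treated points lie above the 3 untreated points, and in Spp1, Met and Krt19 they lie below. The 40 genes were picked with their results known, so these counts describe the plot and test nothing. Over all protein-coding genes tested the groups did not overlap in 28.2% (treated higher) and 26.7% (treated lower).

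Chemokine ligands gave 3 of 22 higher and none lower, a share little above the 9.36% of all protein-coding genes tested. Cxcl12, which fibroblasts make and which binds CXCR4, was at 67.04, 54.05 and 59.96 CPM in untreated and 123, 185 and 129.6 CPM in treated tumors (log2 fold change 1.27 ± 0.16, adjusted p = 0.00487). Cxcl16, the ligand of CXCR6, was at 102, 52.9 and 103 CPM in untreated and 216, 239 and 177 CPM in treated tumors (log2 fold change 1.3 ± 0.25, adjusted p = 0.0095). Ccl11 (eotaxin), the ligand of the eosinophil receptor CCR3, was at 1.64, 2.003 and 1.30 CPM in untreated and 5.54, 5.47 and 3.52 CPM in treated tumors (log2 fold change 1.56 ± 0.25, adjusted p = 0.00656). None of the 3 overlapped between the groups. Of the chemokine ligands, the number called higher was 5 without untreated replicate 2. Ligands of monocytes and neutrophils did overlap. Ccl2 was at 47.5, 41.2 and 25.9 CPM in untreated and 47.3, 32.2 and 36.02 CPM in treated tumors and Cxcl1 had an adjusted p of 0.898. Among inflammatory cytokines 5 of 23 rose and 1 fell. Il27, a product of antigen-presenting cells, was at 1.57, 1.09 and 2.56 CPM in untreated and 4.38, 5.08 and 3.81 CPM in treated tumors (log2 fold change 1.34 ± 0.31, adjusted p = 0.0159, called in 4 of 6 leave-one-out fits). Il6, of the acute-phase response, was at 5.02, 5.63 and 2.77 CPM in untreated and 12.3, 7.74 and 8.64 CPM in treated tumors (log2 fold change 1.1 ± 0.29, adjusted p = 0.024, called in 3 of 6 leave-one-out fits). Il12a, a chain of IL-12, was at 0.170, 0.0395 and 0.104 CPM in untreated and 0.514, 1.002 and 0.313 CPM in treated tumors (log2 fold change 2.54 ± 0.58, adjusted p = 0.0163, called in 5 of 6 leave-one-out fits). None of the 3 overlapped between the groups. Il1b did overlap, at 82.7, 101 and 34.6 CPM in untreated and 110.2, 106 and 99.95 CPM in treated tumors, whereas Il1a (log2 fold change 1.11 ± 0.28) and the inflammasome sensor Nlrp3 (log2 fold change 1.03 ± 0.13) rose. The inflammatory cytokines called higher numbered 2 without treated replicate 2 and 3 without untreated replicate 1 or treated replicate 1. Tslp, an alarmin of epithelium, was the gene that fell, at 0.976, 0.923 and 0.717 CPM in untreated and 0.493, 0.230 and 0.464 CPM in treated tumors (log2 fold change -1.13 ± 0.33, adjusted p = 0.033, called in 1 of 6 leave-one-out fits). Leave-one-out counts of inflammatory cytokines called lower were 0 without untreated replicate 1, untreated replicate 2, treated replicate 1, treated replicate 2 or treated replicate 3.

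Of 173 receptors on leukocytes and stroma tested in 8 lists, 43 (24.9%) rose, against 9.36% of all protein-coding genes, and no receptor of these lists fell. The chemokine receptors gave 6 of 22. Cxcr3, the receptor for CXCL9 and CXCL10 on activated T cells (chrX:101731535-101734269), was at 2.62, 1.63 and 3.42 CPM in untreated and 10.04, 9.71 and 8.11 CPM in treated tumors (log2 fold change 1.86 ± 0.26, adjusted p = 0.00511). Ccr4, the receptor for CCL22, had 13, 4 and 16 counts in untreated and 77, 72 and 57 counts in treated tumors (log2 fold change 2.49 ± 0.4, adjusted p = 0.00656). In both genes each treated tumor was above each untreated tumor. Cxcr4 was at 17.3, 13.96 and 26.9 CPM in untreated and 49.7, 50.1 and 38 CPM in treated tumors (log2 fold change 1.24 ± 0.23, adjusted p = 0.00897). Cxcr6 was at 27.5, 17.9 and 37.02 CPM in untreated and 60.3, 60.8 and 48 CPM in treated tumors (log2 fold change 1.04 ± 0.24, adjusted p = 0.016, called in 2 of 6 leave-one-out fits), so both receptor and ligand rose for CXCL12 and for CXCL16. For CCL22 the same held with Ccr4, whereas for CXCL9 and CXCL10 the receptor rose and the ligands did not pass the test. Ccr2, the monocyte receptor, was at 78.2, 71.3 and 98.3 CPM in untreated and 168, 140.2 and 118 CPM in treated tumors (log2 fold change 0.78 ± 0.16, adjusted p = 0.0111). The decoy receptor Ackr3 was the member with a lower value by adjusted p alone, at 77.7, 100.4 and 55.95 CPM in untreated and 54.9, 47.6 and 51.8 CPM in treated tumors (log2 fold change -0.6 ± 0.19, adjusted p = 0.0435). Among the chemokine receptors the number called higher was 3 without treated replicate 1 or treated replicate 2 and 12 without untreated replicate 3.

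Cytokine receptors gave 11 of 27 higher, and 23 were higher by adjusted p at any fold change. The chains of the GM-CSF and IL-3 receptors rose. Csf2ra, the chain specific to GM-CSF, was at 24.6, 18.6 and 30.4 CPM in untreated and 65.4, 83.4 and 55.5 CPM in treated tumors (log2 fold change 1.47 ± 0.2, adjusted p = 0.00508). Csf2rb, the chain that the GM-CSF, IL-3 and IL-5 receptors share, was at 88.9, 65.5 and 107 CPM in untreated and 216, 291 and 201 CPM in treated tumors (log2 fold change 1.44 ± 0.2, adjusted p = 0.00508). Csf2rb2, a copy of Csf2rb in the mouse that serves IL-3, was at 47.04, 28.9 and 57.3 CPM in untreated and 113, 156 and 108 CPM in treated tumors (log2 fold change 1.5 ± 0.25, adjusted p = 0.00681). Treated replicate 2 was the highest library in each of the 3, and the groups did not overlap. Csf2rb and Csf2rb2 are close copies of each other, so their reads may be split. GM-CSF itself (Csf2) was at 4.26, 3.47 and 1.41 CPM in untreated and 6.84, 4.96 and 5.05 CPM in treated tumors (log2 fold change 0.89 ± 0.37, adjusted p = 0.0986). Il7r, which naive and memory T cells need, was at 26.4, 15.6 and 34.9 CPM in untreated and 71.8, 73.7 and 59.5 CPM in treated tumors (log2 fold change 1.41 ± 0.26, adjusted p = 0.00848), and Il21r and Il12rb2 rose by 1.35 and 1.15 on the log2 scale. Receptors for interferon changed less. Ifngr1 was at 101, 87.3 and 106 CPM in untreated and 131, 126 and 123 CPM in treated tumors (log2 fold change 0.37 ± 0.09, adjusted p = 0.0171). Ifnar1 was at 118, 114 and 131 CPM in untreated and 139, 138 and 135 CPM in treated tumors (log2 fold change 0.18 ± 0.07, adjusted p = 0.0978). The number of cytokine receptors called higher was 5 without untreated replicate 2.

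Receptors for antibody and complement gave 4 of 13 higher and 12 of 13 by adjusted p at any fold change. The common Fc chain Fcer1g was at 58.6, 37.5 and 68.7 CPM in untreated and 135, 129 and 104 CPM in treated tumors (log2 fold change 1.16 ± 0.21, adjusted p = 0.00854, called in 5 of 6 leave-one-out fits). Fcgr3 was at 124, 84.9 and 124 CPM in untreated and 285, 258 and 198 CPM in treated tumors (log2 fold change 1.15 ± 0.18, adjusted p = 0.00619, called in 5 of 6 leave-one-out fits). The groups did not overlap in either. Fcgr4, which binds antibodies of the IgG2 subclasses, was at 95.3, 73.8 and 123 CPM in untreated and 191, 179 and 141 CPM in treated tumors (log2 fold change 0.81 ± 0.19, adjusted p = 0.0172). The inhibitory Fcgr2b was at 173, 133 and 144 CPM in untreated and 294, 330 and 234 CPM in treated tumors (log2 fold change 0.93 ± 0.14, adjusted p = 0.00617). These 2 were higher in each treated tumor as well. Of the Fc and complement receptors, the number called higher was 0 without untreated replicate 2 and 7 without untreated replicate 3. Pattern recognition receptors gave 4 of 22 (18.2%) and scavenger and lipid receptors 3 of 17 (17.6%), against 9.36% of all protein-coding genes tested. Tlr8, a sensor of single-stranded RNA, was at 13.4, 9.73 and 19.8 CPM in untreated and 45.8, 49.8 and 40.9 CPM in treated tumors (log2 fold change 1.67 ± 0.23, adjusted p = 0.00508). Mefv (pyrin) was at 6.15, 5.67 and 9.70 CPM in untreated and 21.6, 21.9 and 17.7 CPM in treated tumors (log2 fold change 1.5 ± 0.21, adjusted p = 0.00508). Tlr2, for bacterial lipoproteins, and Fpr1, for formyl peptides, rose by 1.03 and 1.18 on the log2 scale. Tlr3, an endosomal sensor of double-stranded RNA, went the other way below the 2-fold limit, at 76.5, 65.7 and 67.9 CPM in untreated and 41.6, 40.5 and 46.3 CPM in treated tumors (log2 fold change -0.71 ± 0.09, adjusted p = 0.00483). The pattern recognition receptors called higher numbered 2 without untreated replicate 2 or treated replicate 2, 9 without treated replicate 3 and 14 without untreated replicate 3. Of 17 scavenger and lipid receptors Cd36, Cd300lf and Olr1 rose, with Cd36, a receptor for fatty acids and oxidized lipoproteins, at 29.01, 28.1 and 32.1 CPM in untreated and 70.6, 60.7 and 64.5 CPM in treated tumors (log2 fold change 1.13 ± 0.09, adjusted p = 0.00292). Vldlr was at 71.5, 74.1 and 55.8 CPM in untreated and 42.04, 40.2 and 39.1 CPM in treated tumors (log2 fold change -0.73 ± 0.11, adjusted p = 0.00604). Leave-one-out counts of scavenger and lipid receptors called higher ran from 2 without treated replicate 2 to 5 without treated replicate 3.

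Receptors for lipid mediators and purines gave 9 of 23 higher and 19 of 23 by adjusted p at any fold change. The adenosine receptors Adora2a and Adora2b, which dampen leukocytes, rose. Adora2a was at 4.26, 2.86 and 5.29 CPM in untreated and 9.89, 11.6 and 9.77 CPM in treated tumors (log2 fold change 1.33 ± 0.22, adjusted p = 0.00683). Adora2b was at 6.14, 3.98 and 4.93 CPM in untreated and 12.7, 9.66 and 8.87 CPM in treated tumors (log2 fold change 1.05 ± 0.2, adjusted p = 0.00997, called in 4 of 6 leave-one-out fits). Treated tumors were above untreated tumors in both, and Entpd1, above, which starts the breakdown of ATP toward adenosine, rose with them. Ptger2, a receptor for prostaglandin E2, was at 4.78, 3.48 and 6.62 CPM in untreated and 11.8, 12.5 and 9.91 CPM in treated tumors (log2 fold change 1.2 ± 0.23, adjusted p = 0.00988, called in 5 of 6 leave-one-out fits). The prostacyclin receptor Ptgir was at 5.96, 3.94 and 5.71 CPM in untreated and 14.6, 13.9 and 11.5 CPM in treated tumors (log2 fold change 1.36 ± 0.18, adjusted p = 0.00495). S1pr3, a sphingosine 1-phosphate receptor, was at 13.7, 8.44 and 7.31 CPM in untreated and 26.6, 29.3 and 20.5 CPM in treated tumors (log2 fold change 1.38 ± 0.24, adjusted p = 0.00777). The groups did not overlap in any of the 3. The enzyme Ptgs2 that begins prostaglandin synthesis did overlap, at 228, 272 and 168 CPM in untreated and 240.2, 182 and 246 CPM in treated tumors. Among the lipid and purine GPCRs the number called higher was 5 without untreated replicate 2. Receptor tyrosine kinases gave 4 of 28 (14.3%) and the receptors for TGF beta, Notch and Wnt 2 of 21 (9.52%). The latter share is that of all protein-coding genes, 9.36%, and is no result about these receptors. Pdgfra, a growth factor receptor of fibroblasts, was at 72.3, 39.6 and 61.8 CPM in untreated and 135, 150.3 and 117 CPM in treated tumors (log2 fold change 1.21 ± 0.21, adjusted p = 0.00737, called in 5 of 6 leave-one-out fits), and Ephb2, Ntrk3 and Ror2 rose as well. The number of receptor tyrosine kinases called higher was 2 without untreated replicate 2. The type I receptor Acvrl1 was at 33.6, 20.7 and 34.9 CPM in untreated and 80.5, 78.1 and 65.8 CPM in treated tumors (log2 fold change 1.33 ± 0.19, adjusted p = 0.00555). Its partner endoglin (Eng), of endothelium and macrophages, was at 32.04, 24.2 and 36.4 CPM in untreated and 65.8, 76.7 and 65.4 CPM in treated tumors (log2 fold change 1.17 ± 0.15, adjusted p = 0.00487). Axl and Met, kinases known from many tumor cell lines, did not rise. Axl was at 717, 627 and 708 CPM in untreated and 666, 667 and 686 CPM in treated tumors, with overlapping groups. Met was lower by adjusted p alone, at 342, 325 and 312 CPM in untreated and 214, 218 and 259 CPM in treated tumors (log2 fold change -0.5 ± 0.09, adjusted p = 0.0079).

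**Figure D4:**
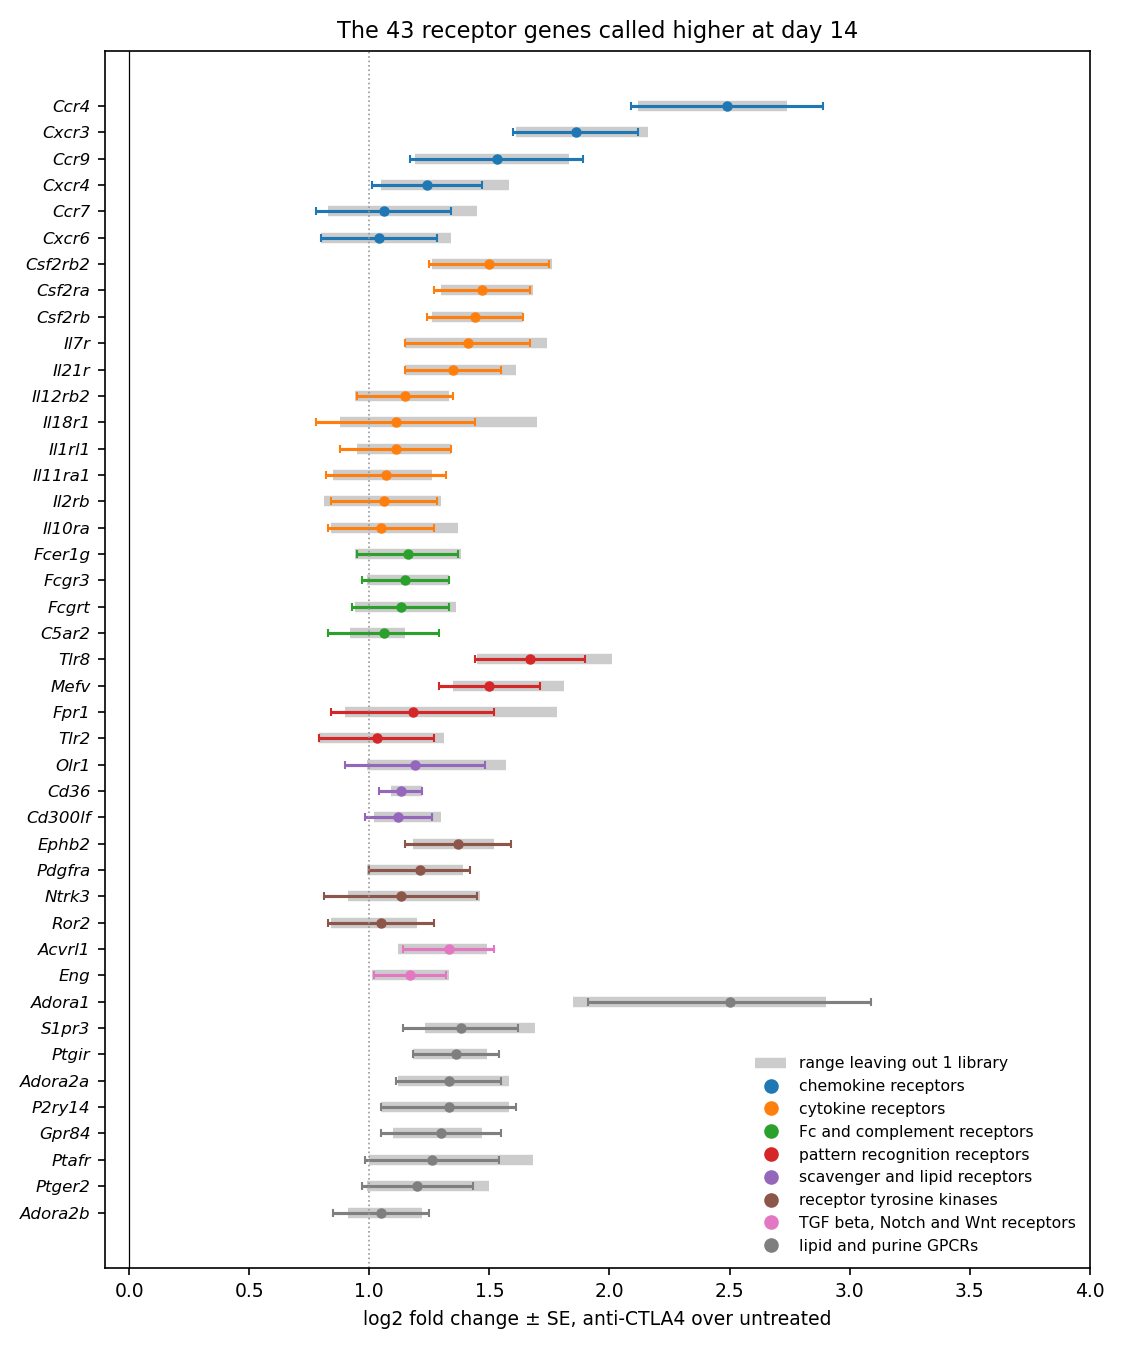
Log2 fold change (treated minus untreated) of the 43 receptor genes called higher on d14, with error bars for the standard error, gray bands for the range over the 6 fits that left out 1 library, and colors for the receptor lists. All lie above 1, with Adora1 (2.5) and Ccr4 (2.49) highest, both at low levels. Mean CPM, normalized over the 17 libraries, was 0.0687 in untreated and 0.380 in treated d14 tumors for Adora1. For Ccr4 it was 0.129 and 0.723.

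Stromal genes rose. Of 19 fibroblast genes 9 rose and none fell (median log2 fold change 0.91), of 20 collagens 10 rose and none fell (1.0), and of 28 matrix glycoproteins and proteoglycans 8 rose and none fell (0.86). The collagens of the common interstitial fiber were at high levels. Col1a1 was at 827, 416 and 578 CPM in untreated and 1273, 1683 and 1050 CPM in treated tumors (log2 fold change 1.14 ± 0.26, adjusted p = 0.0157, called in 4 of 6 leave-one-out fits). Col1a2 was at 697, 351 and 548 CPM in untreated and 1241, 1395 and 904 CPM in treated tumors (log2 fold change 1.15 ± 0.25, adjusted p = 0.014, called in 5 of 6 leave-one-out fits). Col3a1 was at 1356, 805 and 1024 CPM in untreated and 2210, 2492 and 1626 CPM in treated tumors (log2 fold change 0.99 ± 0.21, adjusted p = 0.0134). Untreated replicate 2 was the lowest library in all 3, and treated replicate 2 was the highest. The microfibril collagen Col6a2 was at 89.8, 50.7 and 68.2 CPM in untreated and 224, 205 and 134 CPM in treated tumors (log2 fold change 1.43 ± 0.24, adjusted p = 0.00723). Col6a1 was at 115, 73.6 and 87.6 CPM in untreated and 270, 253 and 164 CPM in treated tumors (log2 fold change 1.32 ± 0.22, adjusted p = 0.00681). Col4a1, of basement membrane, was at 196, 199 and 191 CPM in untreated and 335, 457 and 392 CPM in treated tumors (log2 fold change 1.02 ± 0.11, adjusted p = 0.00409, called in 5 of 6 leave-one-out fits). Treated replicate 1 was the highest in both chains of collagen VI and treated replicate 2 in Col4a1. Not all collagens rose, with Col18a1 overlapping at 471, 418 and 427 CPM in untreated and 420, 416 and 474 CPM in treated tumors. Col8a1 was lower by adjusted p alone, at 236, 218 and 223 CPM in untreated and 183, 161 and 206 CPM in treated tumors (log2 fold change -0.3 ± 0.1, adjusted p = 0.0477). Of the collagens, the number called higher was 6 without treated replicate 2. The matrix glycoproteins and proteoglycans called higher numbered from 6 without treated replicate 2 to 13 without treated replicate 3.

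Markers of adventitial and universal fibroblasts separated the groups at low levels. Pi16 was at 1.90, 1.42 and 2.29 CPM in untreated and 7.05, 5.87 and 4.72 CPM in treated tumors (log2 fold change 1.65 ± 0.23, adjusted p = 0.00526). Dermatopontin (Dpt) was at 3.46, 3.62 and 5.89 CPM in untreated and 14.4, 14.3 and 10.96 CPM in treated tumors (log2 fold change 1.61 ± 0.23, adjusted p = 0.00531). Lumican (Lum, log2 fold change 1.23) and the crosslinking enzyme Loxl1 (1.35) rose too. Fap and Postn, markers of activated tumor fibroblasts, were not called. Fap was at 3.20, 3.82 and 3.38 CPM in untreated and 3.75, 5.30 and 4.63 CPM in treated tumors (log2 fold change 0.39 ± 0.18, adjusted p = 0.125). Postn was at 37.96, 31.2 and 34.9 CPM in untreated and 52.2, 58.3 and 43.1 CPM in treated tumors (log2 fold change 0.56 ± 0.12, adjusted p = 0.014). Fap overlapped between the groups and Postn did not. Among matrix proteins Spon2 was at 12.5, 4.78 and 5.27 CPM in untreated and 49.7, 38.1 and 25.3 CPM in treated tumors (log2 fold change 2.33 ± 0.4, adjusted p = 0.00731). Fibulin 1 (Fbln1) was at 13.3, 9.15 and 15.1 CPM in untreated and 35.4, 41.5 and 27.9 CPM in treated tumors (log2 fold change 1.48 ± 0.2, adjusted p = 0.00508). Emilin1, of elastic fibers, was at 37.9, 21.7 and 32.1 CPM in untreated and 76.7, 83.3 and 60.3 CPM in treated tumors (log2 fold change 1.26 ± 0.2, adjusted p = 0.00664). All 3 kept the groups apart. Tenascin C (Tnc), of wound and tumor stroma, was at 138, 134 and 100.3 CPM in untreated and 227, 329 and 213 CPM in treated tumors (log2 fold change 1.05 ± 0.19, adjusted p = 0.00798, called in 4 of 6 leave-one-out fits). Fibronectin (Fn1) was at 2350, 1596 and 1659 CPM in untreated and 3334, 3731 and 2790 CPM in treated tumors (log2 fold change 0.81 ± 0.17, adjusted p = 0.0122). Both genes were higher in each treated tumor, Fn1 without reaching 2-fold.

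Matrix proteases and their inhibitors gave 6 of 24 higher. Mmp2, a gelatinase of fibroblasts, was at 28.4, 16.3 and 18.5 CPM in untreated and 47.6, 76.5 and 44.97 CPM in treated tumors (log2 fold change 1.42 ± 0.26, adjusted p = 0.00884). Mmp9, the gelatinase of neutrophils and macrophages, was at 114, 57.7 and 40.8 CPM in untreated and 234, 246 and 189.7 CPM in treated tumors (log2 fold change 1.66 ± 0.34, adjusted p = 0.0116). Adamts2, which trims procollagen, was at 31.8, 23.1 and 26.9 CPM in untreated and 58.3, 64.2 and 45.6 CPM in treated tumors (log2 fold change 1.04 ± 0.15, adjusted p = 0.00578, called in 4 of 6 leave-one-out fits). Each was higher in every treated tumor. The inhibitors Timp1, Timp2 and Timp3 overlapped between the groups, with an adjusted p of 0.386, 0.143 and 0.367. Leave-one-out counts of matrix proteases and inhibitors called higher were 3 without treated replicate 2. Mural cell genes gave 3 of 15, against 9.36% of all protein-coding genes tested, a difference of few genes. Desmin (Des) was at 18.7, 11.5 and 13.01 CPM in untreated and 47.4, 38.1 and 34.7 CPM in treated tumors (log2 fold change 1.48 ± 0.19, adjusted p = 0.00487). The smooth muscle myosin Myh11 was at 2.76, 1.62 and 2.41 CPM in untreated and 3.70, 5.18 and 4.74 CPM in treated tumors (log2 fold change 1.0 ± 0.24, adjusted p = 0.0178, called in 4 of 6 leave-one-out fits). Both were higher in each treated tumor. The smooth muscle actin Acta2 was at 25.04, 21.1 and 21.1 CPM in untreated and 26.9, 34.9 and 28.9 CPM in treated tumors (log2 fold change 0.43 ± 0.12, adjusted p = 0.028). Among the mural cell and myofibroblast genes the number called higher was 1 without treated replicate 2. Endothelial genes gave 1 of 18, namely Vwf at 2.67, 3.19 and 5.07 CPM in untreated and 8.04, 10.5 and 8.63 CPM in treated tumors (log2 fold change 1.31 ± 0.25, adjusted p = 0.00937). It was higher in each treated tumor. The number of blood endothelium genes called higher was 2 without treated replicate 1 and 3 without untreated replicate 1 or untreated replicate 3. Pecam1, which leukocytes also express, was at 58.1, 47.4 and 46.9 CPM in untreated and 90.6, 106 and 89.9 CPM in treated tumors (log2 fold change 0.91 ± 0.11, adjusted p = 0.00469). Cdh5, the adherens junction gene of endothelium, was at 25.5, 30.4 and 19.2 CPM in untreated and 28.7, 39.6 and 40.97 CPM in treated tumors (log2 fold change 0.54 ± 0.19, adjusted p = 0.0585). Of 8 lymphatic and lymphoid stroma genes only Reln rose, at a level under 1 CPM. The endothelial share that rose lay below the 9.36% of all protein-coding genes tested, and the lymphatic share little above it. Of the lymphatic endothelium and lymphoid stroma genes, the number called higher was 0 without treated replicate 1 or treated replicate 2 and 2 without untreated replicate 2 or untreated replicate 3.

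Complement genes gave 5 of 12 higher. C3, the hub of the pathway (chr17:57203970-57228136), was at 1478, 614 and 1298 CPM in untreated and 4515, 4143 and 2846 CPM in treated tumors (log2 fold change 1.76 ± 0.32, adjusted p = 0.00837). C6, of the membrane attack complex, was at 3.15, 2.95 and 3.50 CPM in untreated and 9.77, 8.51 and 9.20 CPM in treated tumors (log2 fold change 1.51 ± 0.14, adjusted p = 0.00347). The C1 inhibitor Serping1 and the membrane regulator Cd55 rose by 1.16 and 1.47 on the log2 scale. Treated tumors were above untreated tumors in each of these 4 genes. The alternative pathway gene Cfb was at 3.95, 2.52 and 2.89 CPM in untreated and 2.41, 2.94 and 2.37 CPM in treated tumors (log2 fold change -0.28 ± 0.22, adjusted p = 0.35). C2 was lower by adjusted p alone, at 35.4, 25.8 and 30.7 CPM in untreated and 20.6, 21.4 and 20.04 CPM in treated tumors (log2 fold change -0.56 ± 0.12, adjusted p = 0.0115).

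The mesothelium list held members with higher and with lower values. Wt1, a transcription factor of mesothelium, was at 13.4, 7.88 and 14.5 CPM in untreated and 47.1, 32.5 and 24.9 CPM in treated tumors (log2 fold change 1.54 ± 0.28, adjusted p = 0.00875). Lrrn4, a membrane protein of mesothelium, was at 6.05, 1.36 and 10.1 CPM in untreated and 36.9, 27.7 and 15.7 CPM in treated tumors (log2 fold change 2.19 ± 0.62, adjusted p = 0.0304, called in 3 of 6 leave-one-out fits). Bnc1, basonuclin 1, was at 2.59, 1.46 and 3.63 CPM in untreated and 6.54, 6.98 and 3.99 CPM in treated tumors (log2 fold change 1.19 ± 0.35, adjusted p = 0.0343, called in 2 of 6 leave-one-out fits). Untreated replicate 2 was lowest in each. Upk3b varied as widely, at 4.75, 1.42 and 11.7 CPM in untreated and 22.2, 18.03 and 9.37 CPM in treated tumors, with untreated replicate 3 within the treated range. The keratins went the other way by adjusted p alone, with Krt19 as above (log2 fold change -0.77 ± 0.1, adjusted p = 0.00487), Krt18 at -0.46 ± 0.08 and Krt8 at -0.37 ± 0.09. Mesothelin, as above, had a log2 fold change of -0.38 ± 0.14 (adjusted p = 0.0728), and its groups overlapped. Thus 3 of 13 were called higher. The mesothelium genes called higher numbered 1 without untreated replicate 1, treated replicate 1 or treated replicate 2 and 7 without untreated replicate 3.

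Markers of neighboring tissues other than pancreas were at low levels. Adipocyte genes gave 2 of 9 higher, against 9.36% of all protein-coding genes tested, a difference of few genes. Perilipin 1 (Plin1) was at 0.410, 0.817 and 0.457 CPM in untreated and 1.07, 2.90 and 1.65 CPM in treated tumors (log2 fold change 1.74 ± 0.43, adjusted p = 0.0202, called in 4 of 6 leave-one-out fits). Treated replicate 2 was the highest in Plin1, and Adipoq overlapped between the groups at 0.269, 0.672 and 0.260 CPM in untreated and 0.378, 1.61 and 0.905 CPM in treated tumors. Leave-one-out counts of adipocyte genes called higher were 0 without untreated replicate 1 or treated replicate 2, 1 without untreated replicate 3, treated replicate 1 or treated replicate 3 and 4 without untreated replicate 2. Of the liver list 3 genes passed the filter and rose, all 3 higher in each treated tumor. Haptoglobin (Hp), an acute-phase protein that other cells make too, was at 26.7, 27.4 and 34.99 CPM in untreated and 63.2, 87.99 and 65.8 CPM in treated tumors (log2 fold change 1.28 ± 0.16, adjusted p = 0.00469). Ahsg, secreted by hepatocytes, was at 0.0566, 0.237 and 0.135 CPM in untreated and 0.734, 0.472 and 0.441 CPM in treated tumors (log2 fold change 1.93 ± 0.46, adjusted p = 0.0187, called in 3 of 6 leave-one-out fits). Among the liver genes the number called higher was 5 without treated replicate 2. Skeletal muscle genes gave 3 of 5, all under 1 CPM, as the troponin Tnnt3 at 0.0849, 0.158 and 0.0728 CPM in untreated and 0.262, 0.426 and 0.313 CPM in treated tumors (log2 fold change 1.67 ± 0.39, adjusted p = 0.0177, called in 4 of 6 leave-one-out fits). The counts behind these muscle values are few. The number of skeletal muscle genes called higher was 0 without treated replicate 2 and 1 without untreated replicate 1 or treated replicate 1. Of red blood cell genes 1 of 9 rose (Ermap), of gonadal genes none of 7, and of intestinal genes Olfm4 rose and Lgr5 fell, the latter at 6.35, 5.65 and 5.16 CPM in untreated and 1.44, 2.25 and 3.11 CPM in treated tumors (log2 fold change -1.34 ± 0.27, adjusted p = 0.0115). The share of red blood cell genes that rose is near the 9.36% of all protein-coding genes tested. Of the spleen and red blood cell genes, the number called higher was 0 without untreated replicate 1, treated replicate 1 or treated replicate 2 and 2 without untreated replicate 3. The ovary, uterus and gonadal tissue genes called higher numbered 1 without untreated replicate 3. Leave-one-out counts of intestine genes called higher were 0 without untreated replicate 1, untreated replicate 2, treated replicate 1 or treated replicate 2. The sum over the red blood cell list was 31.2, 51.6 and 41.6 CPM in the untreated and 50.5, 53.2 and 61.5 CPM in the treated tumors, and these ranges overlapped. Pancreas duct and endocrine transcription factors were not higher in treated replicates 1 and 3. Pdx1 was at 106, 102 and 106 CPM in untreated and 79.1, 66.2 and 88.7 CPM in treated tumors and Sox9 at 92.5, 93.9 and 65.2 CPM in untreated and 79.01, 76.1 and 81.9 CPM in treated tumors. What part these tissues had in the stromal and leukocyte results was not tested.

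Cell cycle genes were lower without passing 2-fold. All 22 had negative fold changes (median -0.44), 16 of them with an adjusted p under 0.05. Mki67, the proliferation antigen, was at 586, 597 and 598 CPM in untreated and 386, 484 and 477 CPM in treated tumors (log2 fold change -0.4 ± 0.09, adjusted p = 0.0172). Top2a was at 756, 723 and 693 CPM in untreated and 494, 515 and 547 CPM in treated tumors (log2 fold change -0.48 ± 0.07, adjusted p = 0.00578). Cyclin B1 (Ccnb1) was at 68.8, 68.1 and 70.1 CPM in untreated and 36.8, 44.5 and 41.9 CPM in treated tumors (log2 fold change -0.75 ± 0.08, adjusted p = 0.00436). Treated tumors were below untreated tumors in all 3. Not every gene of the list separated the groups. Mcm2, which acts in licensing replication, overlapped at 163, 153 and 145 CPM in untreated and 134, 134 and 156 CPM in treated tumors. Hypoxia and glycolysis genes gave 2 of 18 higher, Egln3 and Pfkfb3, and 7 were lower by adjusted p alone. The share called higher is near the 9.36% of all protein-coding genes tested and is no result about this list. Among the hypoxia and glycolysis genes the number called higher was 0 without untreated replicate 2 or treated replicate 2 and 1 without untreated replicate 3. Egln3, an oxygen sensor, was at 78.4, 53 and 50.1 CPM in untreated and 140.5, 146 and 93.2 CPM in treated tumors (log2 fold change 1.07 ± 0.22, adjusted p = 0.0115, called in 3 of 6 leave-one-out fits). Pfkfb3, which drives glycolysis, was at 65.7, 55.2 and 84.8 CPM in untreated and 142, 159 and 123 CPM in treated tumors (log2 fold change 1.04 ± 0.16, adjusted p = 0.00624, called in 4 of 6 leave-one-out fits). Treated tumors were above untreated tumors in both. Bnip3, which acts in mitophagy, was lower by adjusted p alone, at 446, 438 and 366 CPM in untreated and 283, 272 and 260.4 CPM in treated tumors (log2 fold change -0.62 ± 0.09, adjusted p = 0.00572). Vegfa overlapped between the groups at 420.3, 485 and 326 CPM in untreated and 373, 389 and 333 CPM in treated tumors. Of 13 genes of the unfolded protein response none was called, and 1, Ddit3, was lower by adjusted p alone.

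**Figure D5:**
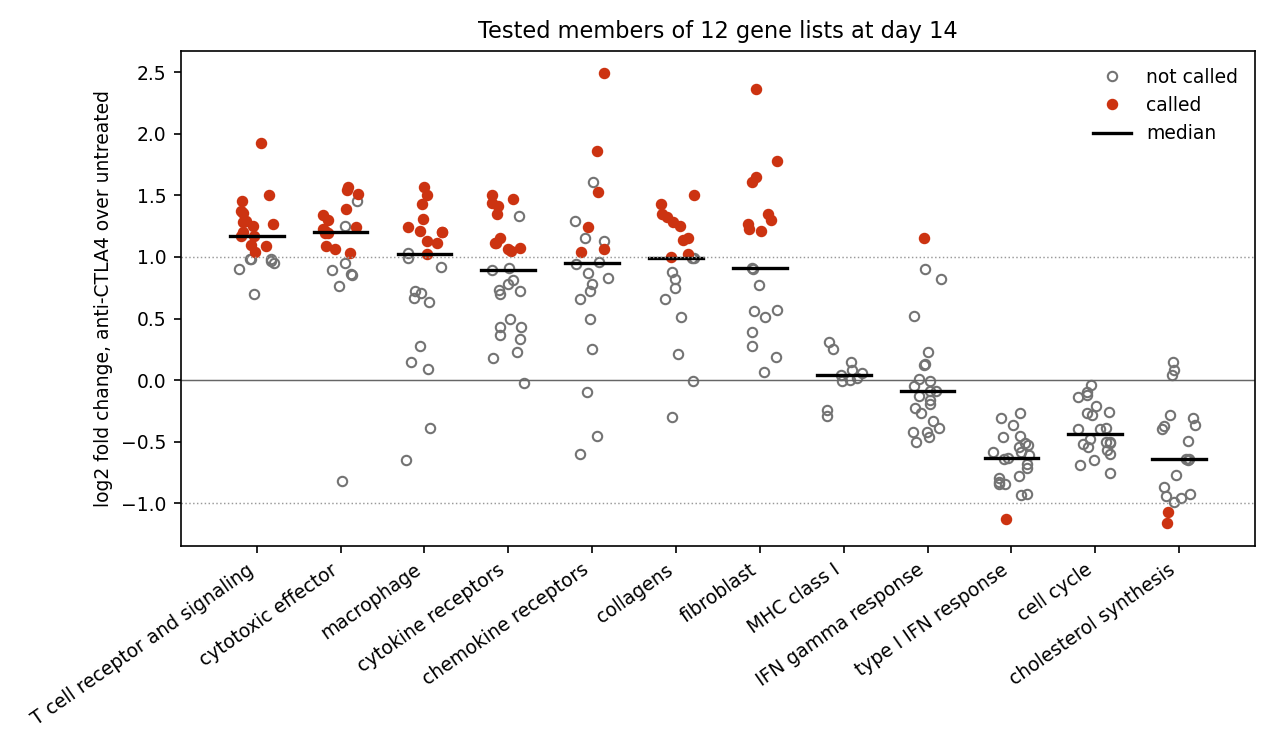
Log2 fold change (treated minus untreated) on d14 of each tested gene of 12 lists, 1 point per gene (filled where called), with the median of each list as a bar and dotted lines at 1 and -1. The median over all protein-coding genes was -0.002. The type I IFN (median -0.63), cholesterol synthesis (-0.64) and cell cycle (-0.44) lists lie below 0, and the T cell (1.17), macrophage (1.02) and collagen (1.0) lists above.

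The genes with the largest fold changes at 5 CPM or more were, on the higher side, 10 pancreas genes, whose lists are described above by library. The next 10, chosen after the values were seen, were Col6a5, Wnk2, Clec3b, Spon2, Lrrn4, Jchain, Cadm3, Adgrb2, Cldn15 and Abca1. Col6a5, a collagen VI chain (chr9:105856078-105960643), was at 9.29, 1.58 and 3.57 CPM in untreated and 56.9, 34.4 and 24.9 CPM in treated tumors (log2 fold change 3.02 ± 0.6, adjusted p = 0.0106). Abca1, which exports cholesterol from cells, was at 102, 62.9 and 95.5 CPM in untreated and 301, 385 and 288 CPM in treated tumors (log2 fold change 1.9 ± 0.19, adjusted p = 0.0037). The groups did not overlap in either. Clec3b, a fibroblast gene, was at 2.66, 0.620 and 4.74 CPM in untreated and 20.3, 13.8 and 7.20 CPM in treated tumors (log2 fold change 2.36 ± 0.65, adjusted p = 0.0283, called in 3 of 6 leave-one-out fits). On the lower side the 10 were Teddm3, Cldn2, Sult1c2, Eno1b, Anxa10, Ugt2b34, mt-Atp8, S100a4, Rpl36a and Vnn1. Claudin 2 (Cldn2), of tight junctions in leaky epithelium (chrX:139800828-139811386), was at 22.6, 25.6 and 25.8 CPM in untreated and 6.14, 6.67 and 10.6 CPM in treated tumors (log2 fold change -1.66 ± 0.2, adjusted p = 0.00469). Teddm3 was at 30.1, 27.2 and 23.6 CPM in untreated and 6.11, 5.89 and 7.49 CPM in treated tumors (log2 fold change -2.05 ± 0.13, adjusted p = 0.00292). Both were lower in each treated tumor. Annexin A10 (Anxa10) was at 14.9, 29.2 and 13.9 CPM in untreated and 5.82, 8.12 and 6.26 CPM in treated tumors (log2 fold change -1.52 ± 0.29, adjusted p = 0.00991). Ugt2b34, a conjugating enzyme, was at 24.9, 32.8 and 44.9 CPM in untreated and 10.1, 9.77 and 17.2 CPM in treated tumors (log2 fold change -1.47 ± 0.27, adjusted p = 0.00913). Vnn1, a pantetheinase, was at 29.4, 26.1 and 34.7 CPM in untreated and 10.9, 11.4 and 13.5 CPM in treated tumors (log2 fold change -1.33 ± 0.13, adjusted p = 0.00365). In each of these genes the treated tumors lay below the untreated tumors.

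Among these lower genes Rpl36a, Eno1b and mt-Atp8 are short or have close copies elsewhere in the genome. Rpl36a was at 122, 117 and 116 CPM in untreated and 41.8, 52.7 and 45.6 CPM in treated tumors (log2 fold change -1.34 ± 0.1, adjusted p = 0.00292). Eno1b, a copy of the glycolytic Eno1, was at 92.5, 83.9 and 40.8 CPM in untreated and 24.04, 25.7 and 24.1 CPM in treated tumors (log2 fold change -1.56 ± 0.27, adjusted p = 0.00738). The gene mt-Atp8, of the mitochondrial genome, was at 238, 223 and 100.4 CPM in untreated and 76.9, 63.2 and 66.3 CPM in treated tumors (log2 fold change -1.44 ± 0.29, adjusted p = 0.0109, called in 5 of 6 leave-one-out fits). Reads of such genes can be split or lost where only unique alignments are kept. They moved with the shares of ribosomal protein and pseudogene counts given at the start. Of 75 ribosomal protein genes 4 fell and none rose (median log2 fold change -0.42), and of 570 processed pseudogenes 172 fell and 10 rose (median -0.75). The part of library preparation in these values was not tested.

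The effect of treatment on d14 was set against that on d10, where tumors of 3 treated mice were compared with those of 5 untreated mice in 1 fit of all 17 libraries. The difference between the effects was called in 1848 of 14719 protein-coding genes (12.6%), 1641 (11.1%) with the larger value on d14 and 207 (1.41%) with the smaller. By list it was called in 19 of 22 T cell genes, 13 of 23 macrophage genes, 16 of 22 chemokine receptor genes, 11 of 20 collagens and 12 of 19 fibroblast genes, each time with the larger value on d14, and in none of the 22 cell cycle and 23 type I IFN genes. For Cd6 the difference was 1.54 ± 0.28, adjusted p = 0.00233, for Csf1r 1.63 ± 0.32, adjusted p = 0.00347, for Col1a1 1.4 ± 0.3, adjusted p = 0.00559 and for Cxcr3 2.52 ± 0.46, adjusted p = 0.00226. Untreated and treated means of Cd6 were 12.9 and 11.8 CPM on d10 and 6.91 and 18.45 CPM on d14, normalized over the 17 libraries. Those of Cxcr3 were 5.88 and 3.64 CPM on d10 and 2.47 and 8.77 CPM on d14. In each of these genes the untreated mean was lower on d14 than on d10. On d10 the treated mean lay below the untreated mean. The difference thus holds changes in the untreated tumors too. Without treated d14 replicates 1 and 3 the number of genes was 1096. Injections on d6 and d10 are stated for the mice of d14 tumors, and the number given before collection on d10 was not settled here. Number of injections and time since the last may thus differ between the days. Whether the libraries of the 2 days were prepared and sequenced together is not given in the sources used here. Day, course of injections and library set cannot be told apart.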

How the data were processed

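The study collected peritoneal AB12 tumors as bulk RNA-seq libraries (KAPA RNA HyperPrep, paired-end reads on NextSeq500 or NovaSeq6000). The authors aligned reads to GRCm38/mm10 with TopHat2 2.0.14, kept unique alignments and counted reads per Gencode vM21 gene with HTSeq; the deposited values are these raw counts, and the strand setting is not given in the sources used here. For their own results the authors also removed unexpressed genes and genes with a significant batch effect between sequencing projects. Those genes were not removed here. The part of sequencing project in the calls, and in the difference between d14 and d10, was not tested. Columns were matched to labels by name, and 0 columns were left over. Of 55450 genes, 18062 passed edgeR's filter on low counts in the 6 d14 libraries.

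Counts were TMM-normalized and tested with edgeR 4.0.16 (quasi-likelihood, R 4.3.3) over all genes of the 6 libraries, with Benjamini-Hochberg adjustment over all genes tested; DESeq2 1.42.0 was an alternative. A call needs an adjusted p under 0.05 and a change over 2-fold. The standard error is the log2 fold change divided by the root of its F value. The pipeline was tested on simulated data. Alternatives were another normalization, no filter, a stricter filter, other sample sets, the replicate number as a block and leaving out each library. With 3 tumors per group, p-values set the difference between groups against the spread between these tumors, which the fit moderates across genes. Replicates of a group differed by more than sampling noise.

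The members and lists were chosen with earlier results of these data known. Genes were named by rule: a fixed set of T cell genes with Cxcl9 and Cxcl10, the 10 called genes of largest change in each direction at 5 CPM or more, up to 6 called members of smallest p in each of the 50 lists (or 3 of highest level where none was called) and the highest pancreas genes. Named outside that rule, with their values seen, were Abca1, Abcg1, Ackr3, Acta2, Adgrb2, Adipoq, Adora1, Alb, Apoe, Axl, Bnip3, C2, Cadm3, Ccl2, Ccl4, Ccl5, Ccnb1, Ccr2, Cd274, Cd4, Cd80, Cd86, Cdh5, Cfb, Cldn15, Cldn7, Clec3b, Clec9a, Cma1, Col18a1, Col1a1, Col1a2, Col3a1, Col6a5, Col8a1, Cpa3, Cr2, Csf1r, Csf2, Cxcl1, Ddit3, Eno1, Epcam, Fap, Fcgr2b, Fcgr4, Fn1, Gata6, Gcg, Hmgcs1, Hmox1, Idi1, Ifi44, Ifih1, Ifit1, Ifit3, Ifnar1, Ifngr1, Il1b, Ins1, Ins2, Irf7, Isg15, Krt18, Krt19, Krt8, Ltf, Ly6c2, Mcm2, Mcpt4, Met, Ms4a1, Msln, Mylip, Ngp, Nox1, Oas3, Pecam1, Postn, Ptgs2, S100a8, Slc7a11, Timp1, Timp2, Timp3, Tlr3, Trem2, Tspan8, Upk3b, Vegfa, Vldlr, Wnk2, Xaf1, Xcr1, Serpini2, Pigr, Cckar and Gm10334, and the cholesterol, sterol efflux and epithelial lists. Calb2 was named outside the rule as well. Promoter windows come from RefSeq (GRCm38.p6). A few list members are not reported here.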

Additional observations from a re-analysis of the deposited data

Results flagged for a closer look

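Several genes were singled out because the effect of treatment (log2) differed between d14 and d10 in edgeR's quasi-likelihood fit of all 17 libraries. For the T cell and effector genes the d14 effect exceeded the d10 effect by 1.49 for Gzmb, 0.80 for Prf1, 1.16 for Cd3e, 1.41 for Cd8b1, 0.91 for Cd3d, 1.54 for Cd6 and 1.33 for Ifng. For the genes that fell most on d14 the difference was -2.16 for Teddm3, -1.47 for Cldn2, -2.18 for Eno1b, -2.12 for Anxa10, -1.43 for Ugt2b34, -2.17 for Rpl36a and -1.48 for Vnn1. The acinar gene Ctrl gave 6.08, a fitted value that depends on the counts of treated d14 replicates 1 and 3. Each passed an adjusted p of 0.05, while 1848 protein-coding genes passed it with a difference over 2-fold, a limit that Prf1 and Cd3d did not reach. Groups of 3 tumors were not searched for outlying values.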

How the results depend on the processing

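With treated replicates 1 and 3 left out together, 0 genes were called, 0 of them higher and 0 lower, 0 members of the lists were called, and the difference between d14 and d10 was called in 1096 genes; with 1 treated tumor the fit rests on fewer samples. Leaving out 1 library gave 921 to 2036 genes called, 844 to 1857 higher and 73 to 179 lower, 1298 to 1987 for the difference between days and 155 to 304 list members, against 202 with all 6 libraries. The higher calls numbered 844, 884 and 847 without treated replicate 1, treated replicate 2 and untreated replicate 2, and the lower calls 77, 73 and 99 without treated replicate 1, treated replicate 2 and untreated replicate 1. The list members numbered 304 without untreated replicate 3. DESeq2 gave 1543 calls, no TMM 1529, no filter 1662, at least 10 counts in each library 1317, protein-coding genes alone 1587, no pancreas genes 1500 and all 17 libraries 1415. The replicate number as a block gave 1349 calls (1220 higher and 129 lower) and 226 list members. Deviations of same-numbered tumors correlated at 0.159, -0.069 and -0.219, so the numbers were not taken to pair the mice. Of 199 named genes tested, 196 stayed on the same side of the threshold with DESeq2, and 94 of 168 called were called in all 6 leave-one-out fits. The sign turned in genes that were not called. Leave-one-out values ran from -0.244 to 0.007 for Cxcl10 (the latter without untreated replicate 1), -0.05 to 0.225 for Cxcl9 (-0.05 without untreated replicate 2), -0.418 to 0.111 for Serpinb2 (0.111 without untreated replicate 1), -0.011 to 0.254 for Tapbp (-0.011 without untreated replicate 2) and -0.201 to 0.171 for Esr1 (0.042 without treated replicate 1 and 0.171 without untreated replicate 3). Without treated replicates 1 and 3 Esr1 was at 0.077 and Hyou1 at -0.066. It also turned in the called Dmbt1 (-0.576) without treated replicates 1 and 3, a gene of the pancreas list. The cause of other changes was not tested. Low counts limit genes under 1 CPM.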

Other observations

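Genes of sterol handling, picked after their values were seen, moved in opposite directions. Of 20 cholesterol synthesis genes 2 fell, 13 were lower by adjusted p at any fold change and the median log2 fold change was -0.64. The number of cholesterol synthesis genes called lower was 1 without untreated replicate 1 or treated replicate 1 and 5 without treated replicate 3. Idi1, an isomerase of the pathway, was at 66.6, 65.7 and 58.5 CPM in untreated and 27.7, 24.5 and 33.03 CPM in treated tumors (log2 fold change -1.16 ± 0.12, adjusted p = 0.00365), and Hmgcs1, an early enzyme, at 117, 115 and 123 CPM in untreated and 66.3, 64.3 and 77.01 CPM in treated tumors (log2 fold change -0.77 ± 0.09, adjusted p = 0.00436). Treated tumors lay below untreated tumors in both. Of 9 genes of sterol efflux and targets of the sterol receptor LXR, 4 rose, namely Abca1, Abcg1, Apoe and Mylip. Abcg1, a cholesterol exporter, was at 29.7, 17.5 and 43.6 CPM in untreated and 96.4, 85.5 and 79.95 CPM in treated tumors (log2 fold change 1.53 ± 0.28, adjusted p = 0.00905), and Mylip, which degrades the LDL receptor, at 6.52, 3.72 and 9.99 CPM in untreated and 26.2, 24.04 and 22.6 CPM in treated tumors (log2 fold change 1.84 ± 0.31, adjusted p = 0.00681). Neither overlapped between the groups.

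Of 15 epithelial genes, also picked after their values were seen, 7 fell and 2 rose. Of the epithelial genes, the number called higher was 0 without treated replicate 1 and 1 without untreated replicate 2. Tspan8, a tetraspanin, was at 171, 137 and 165 CPM in untreated and 61.3, 58.8 and 80.7 CPM in treated tumors (log2 fold change -1.24 ± 0.14, adjusted p = 0.00436), and Nox1, an oxidase of epithelium, at 138, 121 and 80.8 CPM in untreated and 45.9, 31.4 and 58.1 CPM in treated tumors (log2 fold change -1.33 ± 0.26, adjusted p = 0.00991). In contrast Epcam, an adhesion molecule of epithelium, was at 0.679, 0.250 and 0.509 CPM in untreated and 2.64, 1.08 and 1.17 CPM in treated tumors (log2 fold change 1.77 ± 0.47, adjusted p = 0.0249, called in 4 of 6 leave-one-out fits), and Cldn7 at 0.127, 0.0395 and 0.0936 CPM in untreated and 0.661, 0.311 and 0.267 CPM in treated tumors (log2 fold change 2.24 ± 0.52, adjusted p = 0.0168, called in 5 of 6 leave-one-out fits). Heme oxygenase 1 (Hmox1) was at 119.8, 131 and 135 CPM in untreated and 403, 276 and 259.7 CPM in treated tumors (log2 fold change 1.28 ± 0.16, adjusted p = 0.00485), and the cystine transporter Slc7a11 at 26.6, 16.8 and 28.03 CPM in untreated and 76.3, 101 and 84.5 CPM in treated tumors (log2 fold change 1.87 ± 0.2, adjusted p = 0.00397). All of these kept the groups apart.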
